A study of Mus musculus with 7 samples.

Results

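The genes described here encode the cytotoxic granule of the T cell: the pore protein perforin (Prf1), the granzymes A, B, C, K and M (Gzma, Gzmb, Gzmc, Gzmk and Gzmm), the proteoglycan serglycin (Srgn) and the granule membrane protein NKG7 (Nkg7). These 8 genes were chosen by name, and 7 of them were found by gene symbol among the 16156 genes of the deposited tables. Gzmc is not analysed here. The libraries are labelled as congenically marked OT-I CD8 T cells, whose transgenic receptor sees an ovalbumin peptide, and the tissue is labelled as CD8 T cells of the C57Bl/6 strain. The cells had been placed into C57Bl/6 mice 1 day ahead of infection with Listeria monocytogenes that carries ovalbumin and were recovered 6 days after infection. The 2 groups are ACLY KO (KO, 3 libraries), labelled as lacking ATP citrate lyase, and WT (4 libraries), and both had the same transfer and infection. The libraries are called KO1 to KO3 and WT1 to WT4 by their replicate numbers. How and in which cells Acly was deleted is not given in the labels, nor is it said that replicates are different mice. The p-values below therefore describe spread among these libraries, which may be technical.

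A cytotoxic T cell stores perforin and granzymes in secretory lysosomes and releases them at the contact with its target. Perforin opens the target's membrane, and granzymes are serine proteases that then cut proteins inside it. Granzyme B cuts after aspartate and starts the caspase pathway, granzymes A and K cut after basic residues, and granzyme M cuts after methionine or leucine. Serglycin carries the sulfated sugar chains on which the positively charged proteases are packed, and NKG7 is needed for efficient release of the granule. In mice infected with intracellular bacteria, CD8 T cells make these transcripts as they become effector cells.

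The gene counts summed to between 37473484 and 75586011 per library, with all 3 KO totals under all 4 WT totals. At these depths 3 counts correspond to between 0.0397 and 0.0801 CPM (counts scaled to library size), far below the level of each granule gene. Acly, the deleted gene, was at 62.0 to 262 CPM in KO and 276 to 414 CPM in WT, so it was lower in each KO library but was still counted there. The V beta segments of the OT-I receptor (Trbv12-1 and Trbv12-2) took 46.7%, 23.2% and 61.8% of Trbv counts in KO1 to KO3 (exact Clopper-Pearson 95% intervals 45.6 to 47.8, 22.6 to 23.8 and 61.0 to 62.5). In WT1 to WT3 they took between 99.0% and 99.2%, and in WT4 they took 84.5% (interval 84.1 to 84.9). The 6 CD3 and CD8 genes that define a CD8 T cell summed to 4975 to 6401 CPM in WT, to 5303 and 5187 CPM in KO2 and KO3, and to 1988 CPM in KO1. The 6 B cell markers, led by Cd79a, all had KO ranges above their WT ranges, as did 9.46% of all genes. Their sum was 4574, 153 and 76.5 CPM in KO1 to KO3 against 11.7 to 19.4 CPM in WT. The 6 macrophage markers, led by Lyz2 and Csf1r, summed to 1106, 54.4 and 824 CPM in KO1 to KO3 and to 5.08 to 15.9 CPM in WT. In bulk RNA, fewer cells of a type and less RNA per cell cannot be told apart. KO1 and KO2 thus go against their label as OT-I cells, since most of their receptor counts were of other V beta segments. In KO1 the B cell sum also exceeded the T cell sum, whereas the T cell sums of KO2 and KO3 lay within the WT range. Most receptor counts of KO3 were of the OT-I segments, but their share was below that of every WT library. WT4 also held more counts of other segments than WT1 to WT3. "KO" below means the libraries labelled so, and a KO value is that of the mixed RNA. The part of the other transcripts in the granule results was not tested. Values without KO1 and WT4 are given beside the list counts and the genes they move, and the members are also given relative to T cell transcripts.

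Every measured granule gene had a lower mean in KO than in WT, by 1.56-fold (Srgn) to 2.60-fold (Gzmk), but no gene passed the test. All 7 log2 differences were below 0 with a median of -1.06, where 50.0% of all 16156 genes were below 0. edgeR's quasi-likelihood test called 0 of the 7 at an adjusted p under 0.05, as it called 0.00% of all genes lower. At an unadjusted p under 0.05 it counted 3 of the 7 (Gzmb, Nkg7 and Srgn), where 7.89% of all genes were lower at that level. DESeq2 called those 3 genes lower, against 3.22% of all genes. For Nkg7 and Srgn the KO range lay wholly below the WT range, as it did for 9.03% of all genes. Without KO1 and WT4 the median was -0.86, and 5 of the 7 were lower at an unadjusted p under 0.05, where 14.7% of all genes were. In each of the 15 alternative analyses all 7 genes stayed below 0.

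**Figure D1:**
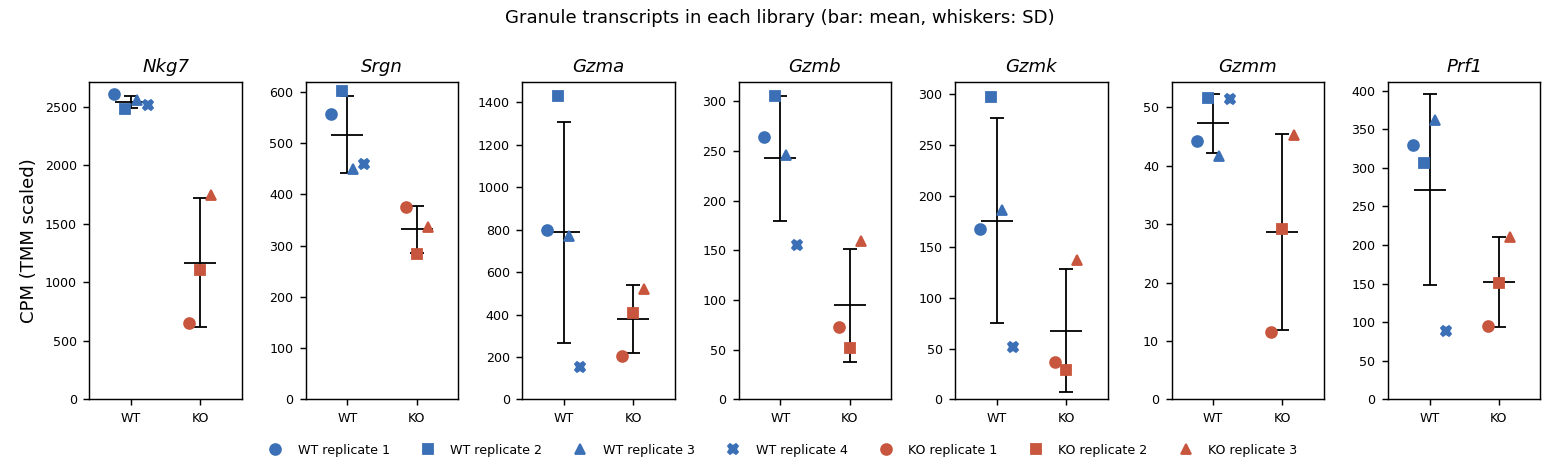
CPM of the 7 granule genes in each library, with a linear axis from 0 in every panel; symbols are libraries, bars are group means and whiskers are the SD (n = 4 WT, n = 3 KO). In the Nkg7 panel the 4 WT libraries sit between 2485 and 2609.8 CPM, above each KO library, whereas WT4 (cross) drops into or below the KO range for Gzma, Gzmk and Prf1.

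Perforin makes the pore through which granzymes enter the target cell. Prf1 lies on the plus strand of chromosome 10 (start 61297833, end 61304680 in mm10, 3 exon blocks) and was at 330, 306 and 362 CPM in WT1 to WT3, 89.2 CPM in WT4, and 94.9, 151 and 210.5 CPM in KO1 to KO3. The KO libraries lay below the first 3 WT libraries and above the fourth, so the groups overlapped. KO averaged 152 ± 57.8 CPM (SD, n = 3), WT averaged 272 ± 124 CPM (SD, n = 4), and the fit gave a log2 difference of -0.84 ± 0.48 (SE; edgeR adjusted p = 0.406). WT4 set most of the WT spread, since the SD of WT1 to WT3 was 27.6 CPM. Without WT4 alone the log2 difference was -1.13 ± 0.29 (SE) and did not pass the test (edgeR adjusted p = 0.0975). Without KO1 and WT4 it was -0.86 ± 0.18 and passed (edgeR adjusted p = 0.0445). Prf1 was the only one of the 7 called in that analysis, where 3.87% of all genes were called lower.

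Granzyme A was the most abundant of the 4 measured granzymes per kilobase of exon in all 7 libraries. Gzma (chromosome 13, 113093825 to 113100981, minus strand) was at 799.7, 1430.3 and 768 CPM in WT1 to WT3, 153 CPM in WT4, and 207, 406 and 521 CPM in KO1 to KO3. Each KO library was again below the first 3 WT libraries and above WT4. The log2 difference was -1.06 ± 0.67 (SE; edgeR adjusted p = 0.446), and it depended on single libraries: it was -0.59 without WT2 and -1.41 without WT4.

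Granzyme K, which like granzyme A cuts after basic residues, is also encoded on chromosome 13 (113171608 to 113225908, minus strand). Gzmk was at 167, 297 and 186 CPM in WT1 to WT3, 51.9 CPM in WT4, and 36.7, 28.6 and 137 CPM in KO1 to KO3. KO1 and KO2 were below every WT library, and KO3 was above WT4 only. The log2 difference was -1.38 ± 0.71 (SE; edgeR adjusted p = 0.354), and without KO3 it was -2.43. The KO libraries differed among themselves by up to 4.78-fold, the widest range of the 7 genes.

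Granzyme B is the caspase-activating protease of the granule. Gzmb (chromosome 14, 56258838 to 56262260, minus strand) was at 264, 305, 246 and 156 CPM in WT1 to WT4 and at 72.6, 52.0 and 159 CPM in KO1 to KO3. The groups overlapped by one pair, since KO3 lay just above WT4. KO averaged 94.6 ± 56.9 CPM (SD, n = 3), WT averaged 243 ± 63.0 CPM (SD, n = 4), and the log2 difference was -1.36 ± 0.41 (SE; edgeR adjusted p = 0.147; DESeq2 adjusted p = 0.0152). Leaving out KO3 moved it to -1.96.

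Granzyme M had the lowest level per kilobase of the 4 measured granzymes. Gzmm (chromosome 10, 79689020 to 79695261, plus strand) was at 44.2, 51.6, 41.7 and 51.4 CPM in WT1 to WT4 and at 11.6, 29.1 and 45.2 CPM in KO1 to KO3. Unlike for Gzma, Gzmk and Prf1, WT4 lay within the range of the other WT libraries, and KO3 lay there too. The log2 difference was -0.72 ± 0.40 (SE; edgeR adjusted p = 0.391), and without KO1, the library with the lowest T cell sum, it was -0.35. Leaving out KO3 moved it to -1.21, and leaving out KO1 and WT4 to -0.28.

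Serglycin packs the granule. Srgn (chromosome 10, 62493833 to 62527451, minus strand) was at 556, 603, 449 and 459 CPM in WT1 to WT4 and at 375, 284 and 336 CPM in KO1 to KO3. Every KO library was below every WT library. KO averaged 332 ± 45.7 CPM (SD, n = 3), WT averaged 517 ± 75.0 CPM (SD, n = 4), and the fit gave a log2 difference of -0.64 ± 0.17 (SE; edgeR adjusted p = 0.115; DESeq2 adjusted p = 0.0113). Srgn had the narrowest range among the KO libraries, 1.32-fold from lowest to highest, and KO1 was the highest of the 3. Serglycin is also made by macrophages and other blood cells. KO1 held the highest macrophage marker sum through Lyz2, at 725 CPM against 38.9 CPM in KO3. Each other listed macrophage marker was higher in KO3 than in KO1. The part of other cells in the Srgn values was not tested.

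NKG7 is a membrane protein of the granule. Nkg7 (chromosome 7, 43437073 to 43438249, plus strand) was the most abundant of the 7 transcripts per kilobase and the steadiest in WT, at 2609.8, 2485, 2555 and 2514 CPM in WT1 to WT4. It was at 653, 1108 and 1749 CPM in KO1 to KO3, so each KO library was clearly below the tight WT range. KO averaged 1170.1 ± 551 CPM (SD, n = 3), WT averaged 2541 ± 54.1 CPM (SD, n = 4), and the fit gave a log2 difference of -1.12 ± 0.32 (SE; edgeR adjusted p = 0.132; DESeq2 adjusted p = 0.00928). Leaving out KO1 moved it to -0.83.

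**Figure D2:**
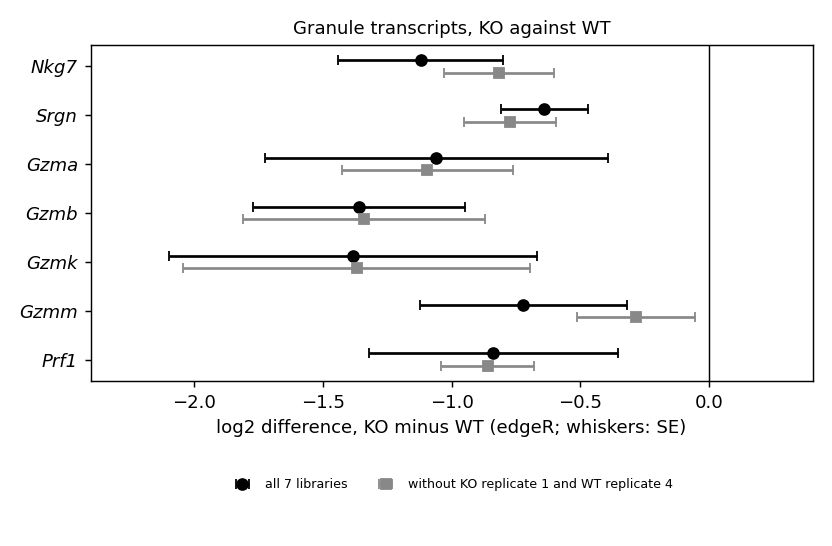
Log2 difference of each granule gene, KO minus WT, from edgeR with whiskers of 1 SE; black circles use all 7 libraries and grey squares leave out KO1 and WT4. All points lie left of 0, the SE of Prf1 shrinks from 0.48 to 0.18 without the pair, and Gzmm moves from -0.72 to -0.28.

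The upstream sequences of 4 of these genes are shown because these genes cover the different patterns of the members across libraries, and because factors that bind T-box and Runx sites are among the regulators measured. Each is the 250 bases before the RefSeq start site (GRCm38.p6, the assembly of mm10), 5′ to 3′ on the gene's strand. The windows are chr10:61297586-61297835 on the plus strand for Prf1, chr14:56262335-56262584 on the minus strand for Gzmb, chr13:113180966-113181215 on the minus strand for Gzmk and chr7:43436888-43437137 on the plus strand for Nkg7. Capitals mark matches, on either strand, to a T-box site (GGTGTNA), a Runx site (TGTGGT), a STAT site (TTCNNNGAA), an AP-1 site (TGANTCA) or an Ets site (CCGGAAG).
Prf1: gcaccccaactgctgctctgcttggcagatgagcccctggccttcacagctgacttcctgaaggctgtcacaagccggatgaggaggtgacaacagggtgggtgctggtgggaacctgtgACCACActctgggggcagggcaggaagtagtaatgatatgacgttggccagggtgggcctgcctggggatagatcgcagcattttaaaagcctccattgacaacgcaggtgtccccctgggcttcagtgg
Gzmb: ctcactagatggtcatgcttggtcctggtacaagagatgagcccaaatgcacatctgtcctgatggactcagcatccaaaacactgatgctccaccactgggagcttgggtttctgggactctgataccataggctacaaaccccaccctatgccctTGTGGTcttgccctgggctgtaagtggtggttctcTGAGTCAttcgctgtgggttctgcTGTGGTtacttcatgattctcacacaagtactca
Gzmk: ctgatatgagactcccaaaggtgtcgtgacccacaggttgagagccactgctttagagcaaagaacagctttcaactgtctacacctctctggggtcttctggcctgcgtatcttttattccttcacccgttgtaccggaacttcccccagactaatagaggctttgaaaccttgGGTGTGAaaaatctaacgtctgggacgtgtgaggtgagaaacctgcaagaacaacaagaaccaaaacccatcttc
Nkg7: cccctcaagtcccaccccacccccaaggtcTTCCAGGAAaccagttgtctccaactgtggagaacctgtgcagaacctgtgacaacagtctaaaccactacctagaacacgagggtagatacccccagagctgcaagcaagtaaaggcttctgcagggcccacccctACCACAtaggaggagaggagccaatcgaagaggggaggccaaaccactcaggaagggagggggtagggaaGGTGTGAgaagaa
The Nkg7 window held a T-box match at -13 to -7, a Runx match at -83 to -78 and a STAT match at -220 to -212, counted from the start site. RefSeq and GENCODE place some starts differently. The Nkg7 window runs past the GENCODE start (43437073), and its T-box match lies inside the GENCODE gene span. The Gzmk window lies wholly inside the GENCODE span of Gzmk. The Gzmb window held Runx matches at -93 to -88 and -34 to -29 with an AP-1 match between them at -58 to -52. Gzmk held 1 T-box match (-75 to -69) and Prf1 held 1 Runx match (-130 to -125). Gzma held 1 Runx match (-50 to -45). Gzmm held a Runx match (-247 to -242) and a STAT match (-86 to -78) before its first start site and a T-box match (-189 to -183) before its second. Srgn held an Ets match (-52 to -46) before its first start site and a Runx match (-202 to -197) before its second. Among the 32851 windows of all genes in the table, 14.0% held a Runx match, 8.61% a T-box match, 7.02% a STAT match, 6.75% an AP-1 match and 6.91% an Ets match. A match describes letters in this window and does not show a bound site.

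Dividing CPM by exon length allowed levels to be compared between genes. In CPM per kilobase of exon (GENCODE M21), Nkg7 led with 2780.1 ± 59.2 in WT (SD, n = 4) and 1280.2 ± 603 in KO (SD, n = 3), above Gzma in all 7 libraries. Gzma followed with 783 ± 519 in WT and 376 ± 158 in KO, then Srgn with 235 ± 34.1 and 151 ± 20.8, and Gzmb with 169 ± 43.9 and 65.9 ± 39.6. Gzmk (126 ± 72.3 in WT, 48.6 ± 43.5 in KO) and Prf1 (105 ± 47.9 and 58.8 ± 22.4) did not differ in order beyond their spread, with Gzmk above Prf1 in 2 of 4 WT and 1 of 3 KO libraries. Gzmm was last in mean, with 32.1 ± 3.40 in WT and 19.5 ± 11.4 in KO (SD, n = 4 and n = 3 throughout). The WT ranges of every neighbouring pair below Nkg7 overlapped.

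The 7 genes together took 0.445% ± 0.0793 (SD, n = 4) of all counts in WT and 0.232% ± 0.0933 (SD, n = 3) in KO. By library the share was 0.458%, 0.539%, 0.439% and 0.346% in WT1 to WT4 and 0.144%, 0.223% and 0.329% in KO1 to KO3, with exact binomial 95% intervals of at most ± 0.0021 percentage points. Each KO library was below each WT library, KO3 only slightly below WT4. Intervals of this kind cover counting error only. Nkg7 supplied the most counts of the 7 genes in each library, such as 189218 of 345909 in WT1 and 24436 of 54286 in KO1. The 4 measured granzymes alone took 0.0410% in WT4, below 0.0558% and 0.0900% in KO2 and KO3, so their summed share overlapped between groups. It was 0.118% to 0.205% in WT1 to WT3 and 0.0324% in KO1.

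No granzyme's share differed between genotypes beyond the spread of the libraries. Per kilobase, Gzma supplied 70.4%, 75.5%, 69.6% and 45.6% of the 4 measured granzymes in WT1 to WT4 and 70.8%, 84.0% and 68.3% in KO1 to KO3. WT4 was the lowest and KO2 the highest. Gzmb supplied 16.3%, 11.3%, 15.6% and 32.6% in WT and 17.4%, 7.54% and 14.6% in KO. Gzmk supplied 11.4% ± 0.645 (SD, n = 4) in WT and 9.10% and 4.30% in KO1 and KO2, and in KO3 it lay above every WT library. Its share was thus nearly constant in WT, WT4 included, and lowest in KO2. The differences were 9.10, -5.75, -2.58 and -0.77 percentage points for Gzma, Gzmb, Gzmk and Gzmm, and none passed (exact permutation tests, two-sided, unadjusted p = 0.514, 0.486, 0.314 and 1.0; Benjamini-Hochberg adjusted over 4 shares 0.686 for the first 3 and 1.0 for Gzmm). Single libraries set much of these values: without WT4 the differences were 2.56 (Gzma), -1.20 (Gzmb) and 1.26 (Gzmm) percentage points, and without KO2 that of Gzmk was -0.33. With 35 splits the smallest p such a test can give is 0.0286.

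**Figure D3:**
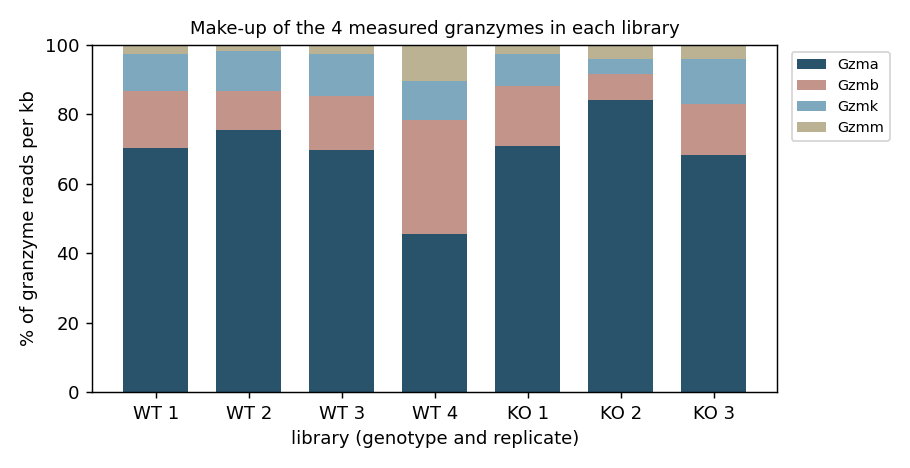
Share of each of the 4 measured granzymes in their summed reads per kilobase of exon, as stacked bars that add to 100% in each library. Gzma takes 68.3% to 84.0% in 6 libraries and 45.6% in WT4, where Gzmb (32.6%) and Gzmm (10.5%) take more than in any other library.

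WT4 divided the members into those that were lower there and those that were not. Relative to the mean of the other 3 WT libraries, Gzma was 6.55-fold lower in WT4, Gzmk 4.18-fold, Prf1 3.73-fold and Gzmb 1.74-fold. Nkg7 (2514 against 2550.1 CPM) and Gzmm (51.4 against 45.8 CPM) were at about the level of the other WT libraries, and Srgn was 1.17-fold lower. Per kilobase, the ratio of Nkg7 to Prf1 was 22.4, 22.9 and 20.0 in WT1 to WT3 and 19.5, 20.8 and 23.5 in KO1 to KO3, but 79.7 in WT4. Outside WT4 this ratio stayed within 19.5 to 23.5 in both genotypes; the pair was picked after its values were seen. The ratio of Nkg7 to Gzmb was 12.8 to 16.3 in WT1 to WT3 and 14.1 and 17.3 in KO1 and KO3, and it was 25.4 in WT4 and 33.5 in KO2. KO2 therefore had less Gzmb per Nkg7 than any other library.

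Relative to the 6 CD3 and CD8 transcripts, the KO and WT libraries overlapped for all granule genes but Nkg7. This scale does not separate OT-I cells from other T cells, and the OT-I receptor share was 46.7%, 23.2% and 61.8% in KO1 to KO3. A value on it is thus that of mixed T cells, and the part of the other T cells was not tested. Nkg7 CPM equalled 40.8%, 44.4%, 46.1% and 50.5% of the summed CD3 and CD8 CPM in WT1 to WT4 and 32.8%, 20.9% and 33.7% in KO1 to KO3. Every KO library was below every WT library, a log2 difference of -0.67 (two-sided p = 0.0286 by exact permutation, the floor for 35 splits; Benjamini-Hochberg adjusted over 7 genes p = 0.20). How many of all genes separate in this way was not computed on this scale. On CPM without this scaling, 9.03% of all genes did. Gzmb equalled 3.65%, 0.98% and 3.07% in KO1 to KO3 and 3.13% to 5.45% in WT, a log2 difference of -0.92 (exact permutation p = 0.0857, adjusted p = 0.30). Without KO2 the Gzmb difference was -0.33.

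For the remaining 5 genes the log2 differences on this scale were -0.94 (Gzmk), -0.36 (Gzmm), -0.22 (Gzma), -0.16 (Prf1) and -0.08 (Srgn), with exact permutation p-values of 0.343, 0.20, 0.743, 0.743 and 0.971 and adjusted p-values of 0.60, 0.467, 0.867, 0.867 and 0.971. The signs of Gzma, Prf1 and Srgn changed when single libraries were left out, and Gzmk went to -0.26 without KO2 and to -1.40 without KO3. KO1 had the lowest CPM of Nkg7, Prf1 and Gzmm of all KO libraries, and per T cell transcript its Gzmb, Prf1 and Gzma were the highest of the KO libraries. Srgn in KO1 equalled 18.9% of the T cell sum, against 8.11% to 10.8% in WT and 5.35% and 6.48% in KO2 and KO3. The macrophage and B cell sums of KO1 stand beside that value, and their part in it was not tested.

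**Figure D4:**
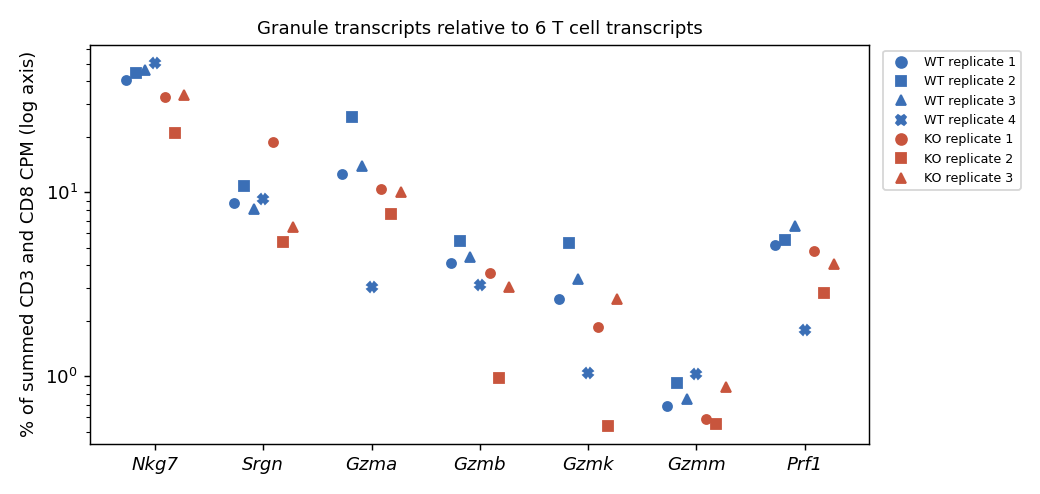
CPM of each granule gene as a percentage of the summed CPM of Cd3d, Cd3e, Cd3g, Cd247, Cd8a and Cd8b1, on a log axis, 1 symbol per library. In the Nkg7 column the KO libraries (20.9% to 33.7%) lie below the WT libraries (40.8% to 50.5%), and in the other columns the genotypes overlap.

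Other cells that hold granule proteins were checked by their markers, whose part in the results was not tested. The 5 natural killer markers summed to 19.2 to 56.4 CPM in KO and 4.12 to 79.7 CPM in WT, led by Klrb1c, and WT4 had the lowest sum and no Klra4 count. Klrb1c made up most of the sum in each library but KO1, where it was at 23.9 of 56.4 CPM. The other 4 markers had log2 differences above 0. Ncr1 was at 10.8, 1.37 and 0.896 CPM in KO1 to KO3 and at most 0.224 CPM in WT. Klra8 was at 9.22, 2.28 and 1.25 CPM against at most 1.05 CPM. Both lay higher in all KO libraries, as did 9.46% of all genes. They were named after their values were seen. The 4 measured mast cell and basophil markers summed to 1.86 to 6.65 CPM in KO and 1.52 to 3.08 CPM in WT, with Cpa3 and Ms4a2 the most abundant and Ms4a2 at 0 in WT2, WT4 and KO2. S100a8 and S100a9, of neutrophils, summed to 305, 20.95 and 0.358 CPM in KO1 to KO3 and to at most 0.322 CPM in WT, where S100a8 was at 0 in 3 of 4 libraries. The 3 measured CD4 T cell markers, led by Zbtb7b and Cd4, summed to 186, 9.22 and 27.6 CPM in KO1 to KO3 and to 9.29 to 34.1 CPM in WT. Cd4 itself was at 110.2, 1.19 and 6.19 CPM in KO1 to KO3 and at most 0.157 CPM in WT, with 0 in WT1 and WT3. Of the plasmacytoid dendritic cell list, Ccr9 alone was measured. It is also a T cell receptor for a gut chemokine, and it stood at 134 CPM in WT4, at 0.853 to 1.75 CPM in the other WT libraries and at 12.6 to 52.0 CPM in KO.

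Genes that process, guard and house the proteases were mixed. Of 15 measured, 10 were below 0 and 5 above, with a median log2 difference of -0.10 (0.0 over all genes), and edgeR called 0. At an unadjusted p under 0.05, 3 were counted lower and 3 higher (7.89% and 11.0% of all genes), and DESeq2 called 3 lower and 3 higher (3.22% and 6.39%). The KO range lay below the WT range for 2 genes and above it for 3 (9.03% and 9.46% of all genes), and without KO1 and WT4 edgeR called 0 lower and 2 higher (3.87% and 5.08%). The granzyme B inhibitor Serpinb9, which protects the killer cell from its own protease, was at 56.5, 66.5 and 91.8 CPM in KO1 to KO3 and 128 to 186 CPM in WT (log2 -1.01 ± 0.22, SE; edgeR adjusted p = 0.0804). The related inhibitor Serpinb6b was at 28.5, 19.4 and 41.2 CPM in KO and 70.3 to 99.9 CPM in WT (log2 -1.50 ± 0.28, SE; edgeR adjusted p = 0.067). Each KO library was below each WT library for both, and without KO1 and WT4 the log2 differences were -0.88 and -1.40 (edgeR adjusted p = 0.0816 and 0.0713).

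The higher genes of this group were of low level in WT. Ctsh, a cathepsin, was at 296, 10.5 and 28.5 CPM in KO1 to KO3 and at most 0.83 CPM in WT. Cd63, a tetraspanin of lysosomes, was at 9.83, 1.12 and 1.74 CPM in KO and at most 0.593 CPM in WT, and Ctsl, another cathepsin, was at 11.3, 9.57 and 20.4 CPM against 3.99 to 7.61 CPM. Ctsh and Cd63 were highest in KO1, which also held the highest B cell sum. KO1 held the highest macrophage sum only through Lyz2, and each other listed macrophage marker was higher in KO3. The part of those cells was not tested. Their edgeR adjusted p-values were 0.0651 for Ctsh, 0.112 for Cd63 and 0.122 for Ctsl. Without KO1 and WT4 Ctsh (log2 5.24) and Ctsl (log2 1.79) passed, with edgeR adjusted p = 0.0235 and 0.0439, and without KO1 Cd63 went from a log2 difference of 3.84 to 2.28.

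The machinery that moves and fuses the granule was also mixed. Of 19 measured genes, 13 were below 0 and 6 above (median log2 -0.23), with 4 lower and 2 higher at an unadjusted p under 0.05 (7.89% and 11.0% of all genes), 0 called by edgeR, and 3 lower and 0 higher by DESeq2 (3.22% and 6.39%). Without KO1 and WT4 edgeR called 3 lower and 0 higher (3.87% and 5.08%). Rab27a, the GTPase that docks granules at the membrane, was at 51.5, 59.1 and 57.8 CPM in KO1 to KO3 and 75.1 to 128 CPM in WT (log2 -0.82 ± 0.19, SE; edgeR adjusted p = 0.0901). Its binding partners Sytl1 (18.2, 22.9 and 30.4 CPM in KO, 48.4 to 60.0 CPM in WT) and Sytl2 (44.3, 37.2 and 76.8 CPM in KO, 68.5 to 124 CPM in WT) had log2 differences of -1.14 ± 0.21 and -0.98 ± 0.31 (SE; edgeR adjusted p = 0.0661 and 0.155). The KO range lay below the WT range for 3 of the 19 genes and above it for 1 (9.03% and 9.46% of all genes). Rab27a and Sytl1 were among the 3, and only KO3 overlapped WT for Sytl2. With KO1 and WT4 left out, Rab27a (log2 -0.86) and Sytl1 (log2 -0.90) passed, with edgeR adjusted p = 0.0373 and 0.0396, and Sytl2 (log2 -0.997) did not, at 0.104.

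The 2 genes of this group counted higher were Stx7, a syntaxin of endosomes, and Arl8b, a GTPase that links lysosomes to kinesin. Stx7 was at 136 CPM in KO1 against 40.7 and 46.9 CPM in KO2 and KO3 and 31.7 to 42.1 CPM in WT, and without KO1 its log2 difference went from 1.08 to 0.31. Arl8b ranged from 83.9 to 91.4 CPM in KO and from 58.5 to 80.7 CPM in WT (log2 0.36 ± 0.14, SE; edgeR adjusted p = 0.218). Unc13d, the priming factor of granule fusion, averaged 206 CPM in KO against 229.6 CPM in WT, and was named after its values were seen.

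Enzymes that build the chondroitin sulfate chains of serglycin gave 11 of 14 measured genes below 0 and 3 above (median log2 -0.24), with 2 lower and 2 higher at an unadjusted p under 0.05 (7.89% and 11.0% of all genes), 0 called by edgeR, and 1 lower and 1 higher by DESeq2 (3.22% and 6.39%). Without KO1 and WT4 edgeR called 3 lower and 2 higher (3.87% and 5.08%). Chsy1, a chondroitin synthase, was at 101, 45.3 and 74.3 CPM in KO1 to KO3, at 258 to 344 CPM in WT1 to WT3 and at 66.1 CPM in WT4, a pattern across WT like that of Prf1 (log2 -1.68 ± 0.55, SE; edgeR adjusted p = 0.165). B3gat3, which adds a sugar of the chain's linker, ranged from 63.8 to 84.8 CPM in KO and from 87.4 to 107 CPM in WT (log2 -0.45 ± 0.14, SE; edgeR adjusted p = 0.156). Chst15, a sulfotransferase, was at 51.5, 27.5 and 11.9 CPM in KO and 1.38 to 5.24 CPM in WT (log2 3.66 ± 0.69, SE; edgeR adjusted p = 0.067). Chst3, another sulfotransferase, was at 128.5, 4.05 and 2.51 CPM in KO1 to KO3, and had 4 counts in WT2 and 0 in the other WT libraries, a count that allows up to 3 counts or 0.0397 to 0.0549 CPM. With KO1 and WT4 left out, Chsy1 (log2 -2.26), Chst15 (log2 3.79) and Chst3 passed, with edgeR adjusted p = 0.0197, 0.0157 and 0.0407, and B3gat3 (log2 -0.34) did not, at 0.219. Chst15 and Chst3 were highest in KO1, beside its B cell sum of 4574 CPM, and the part of other cells was not tested.

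**Figure D5:**
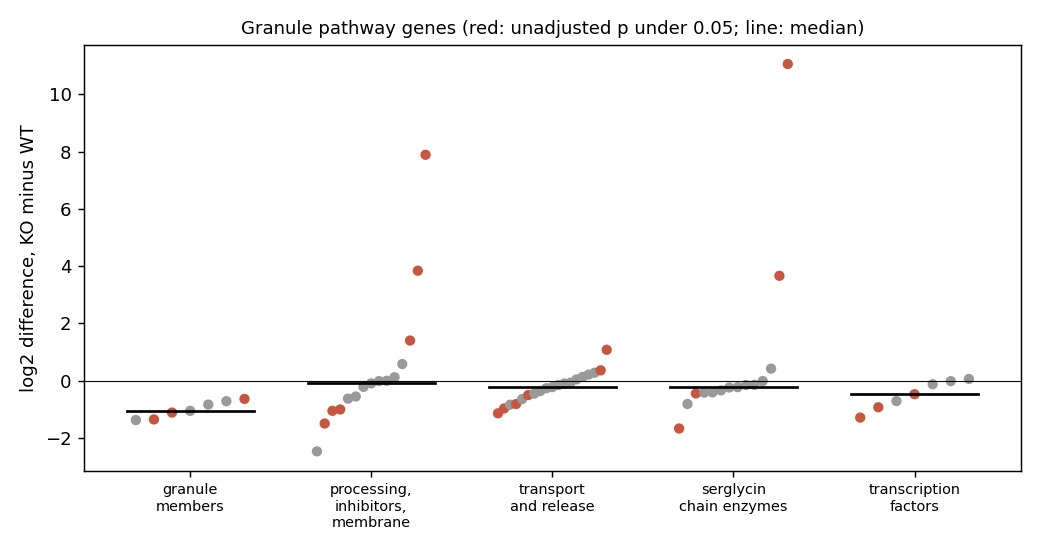
Log2 difference (edgeR, KO minus WT) of every measured gene in 5 groups, 1 point per gene, red where the unadjusted p was under 0.05, with a line at the group median. The granule members have a median of -1.06 with all 7 points below 0, and the other groups have medians of -0.10, -0.23, -0.24 and -0.48 with points on both sides; the highest point is Chst3, whose fitted value rests on nearly no WT counts.

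Transcription factors known to act on granule genes were also examined. Of 7 measured, 6 were below 0 and 1 above (median log2 -0.48), with 3 lower and 0 higher at an unadjusted p under 0.05 (7.89% and 11.0% of all genes), 0 called by edgeR, and 2 lower by DESeq2 (3.22%). Without KO1 and WT4 edgeR called 0 lower (3.87% of all genes). Tbx21 encodes T-bet, a T-box factor, and was at 189, 167 and 392 CPM in KO1 to KO3 and 537 to 670.3 CPM in WT (log2 -1.29 ± 0.31, SE; edgeR adjusted p = 0.0942). Prdm1, which encodes Blimp-1, was at 26.3, 16.9 and 36.8 CPM in KO and 44.9 to 55.0 CPM in WT (log2 -0.93 ± 0.26, SE; edgeR adjusted p = 0.128). Runx3 was at 133, 221 and 194 CPM in KO and 214 to 289 CPM in WT, with KO2 inside the WT range (log2 -0.48 ± 0.20, SE; edgeR adjusted p = 0.261). Its unadjusted p was 0.0484, and 0.0625 and 0.0981 with median-of-ratios and upper-quartile scaling, so it was then not among the 3. Its log2 difference was -0.29 without KO1 and -0.21 without KO1 and WT4, with an edgeR adjusted p of 0.392 in the latter. There Tbx21 was at log2 -1.17 and Prdm1 at -0.96 (edgeR adjusted p = 0.101 and 0.129). Eomes, the other T-box factor of effector cells, had a log2 difference of -0.13 (79.8 CPM in KO and 87.1 CPM in WT on average) and was named after its values were seen. Its exons overlap those of another gene. In KO1 to KO3 Eomes was at 29.7, 86.9 and 123 CPM. WT4 was the lowest WT library for Eomes, at 34.9 CPM against 83.7 to 128 CPM in WT1 to WT3. It was also lowest for Stat4, at 143 CPM against 211 to 292 CPM, and for Tbx21, Prdm1 and Stat5b. For Runx3 WT4 was at the top. Stat4 and Stat5b were named after their values were seen.

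None of the 3 genes whose pattern over the 7 libraries lay nearest to Gzma, Gzmb, Gzmk, Prf1 or Nkg7 was another member. Nearness was the root mean square difference of log2 CPM after each gene's mean was removed. It was taken among the 8601 genes with a symbol and a mean log2 CPM of at least 3. For Gzma the nearest were Klrg1 (0.23), Ly6c2 (0.27) and Akr1c13 (0.36), each of which was also low in WT4 and lowest or second lowest in KO1. For Gzmk they included Klrc2 (0.30) and Il18rap (0.32). For Gzmb they were Ggh (0.14), Arl4d (0.15) and Smpdl3b (0.18), and each of these shared its low value in KO2.

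For Prf1 the nearest were Qprt (0.13) and the receptor joining segments Trbj1-3 (0.16) and Trbj1-4 (0.18). Qprt was at 31.6, 29.7 and 32.3 CPM in WT1 to WT3, 7.56 CPM in WT4 and 10.7, 12.8 and 19.9 CPM in KO1 to KO3. For Nkg7 they were Acsbg1 (0.10), Golm1 (0.17) and Runx2 (0.18). Acsbg1 was at 113 to 122 CPM in the 4 WT libraries and at 34.2, 46.3 and 84.6 CPM in KO1 to KO3, the same flat WT level and KO order as Nkg7. The nearest granule member to Gzma was Prf1, at rank 9 among the 8601 genes compared, and the nearest to Nkg7 was Gzmm, at rank 20. Among the rest, the nearest member to Gzmk was Gzmb (rank 16), to Prf1 it was Gzma (rank 90), and to Gzmb it was Nkg7 (rank 96).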

How the data were processed

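RNA sequencing of total RNA gave 7 libraries, 3 KO and 4 WT, grouped by their titles. The submitters' processing notes name Trim Galore 0.6.0, STAR 2.7.8, DESeq2 and the mm10 build. Which counter, annotation, strand setting and gene filter made the counts is not given in the sources used here, so sense and antisense reads cannot be told apart. No member shares exons with another measured gene. Cd3e, Cd247, Csf1r, Zbtb7b, Eomes and Stat4 do and are less certain. So do Ctsw, Ctsb, Serpinb6a, Lamp1, Vti1b, Sytl3, Kif5b, B4galt7, Chpf2 and Stat5a, which enter the list counts and medians. The authors deposited raw counts for 16156 genes and log2 CPM values for them. TMM scaling with a prior count of 2 gave back the deposited log2 values to within 4.99e-09.

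The CPM printed here were recomputed with the same scaling. The test of genotype was edgeR 4.0.16 under R 4.3.3 (quasi-likelihood fit, genotype as the only term, all genes, Benjamini-Hochberg adjustment over 16156 genes, threshold 0.05). SEs were derived from that fit. Exon lengths and coordinates came from GENCODE M21 and upstream windows from RefSeq (GRCm38.p6), in which all 7 measured members were found. Shares and T cell ratios were compared by exact permutation over 35 splits. Shares were planned over 5 granzymes and T cell ratios over 8 members; 4 and 7 were measured.

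The members and lists were chosen with earlier results of these data known. The text names all measured members, up to 5 genes per pathway list with an unadjusted p under 0.05, the 2 most abundant markers per list (Cd8b1 and Cd3e for T cells) and the 3 nearest genes; some genes that this rule names are not reported here. The listed granzymes Gzmd, Gzme, Gzmf, Gzmg and Gzmn are not analysed here. Alternatives tried: DESeq2 1.42.0, voom of limma 3.58.1 with quality weights, edgeR's bias-adjusted fit, upper-quartile or median-of-ratios scaling, a filter at a mean count of 10, a replicate block, and libraries left out. The scripts were tested on simulated data. No library was left out of the main comparison.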

Additional observations from a re-analysis of the deposited data

Results flagged for a closer look

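Among the 4 WT libraries 4 values stood apart from the other 3, each beyond Dixon's 95% critical value, out of 35 sets of values examined; chance flags about 1 set in 20. Gzmm supplied 10.5% of the granzyme reads per kilobase in WT replicate 4, against 1.86% to 2.66% in the other WT libraries. Chst15 was at 5.24 CPM in WT replicate 4, against 1.38 to 1.48 CPM. Serpinb9 was at 186 CPM in WT replicate 2, against 128 to 134 CPM. Chst3 was at 0.0897 CPM (4 counts) in WT replicate 2 and had 0 counts in the other WT libraries.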

How the results depend on the processing

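With all 7 libraries edgeR called 0 genes higher and 0 lower; at an unadjusted p under 0.05 it counted 1770 and 1275. DESeq2 called 1032 higher and 520 lower, limma voom with quality weights 860 and 272, edgeR's bias-adjusted fit 497 and 77, and edgeR without KO replicate 1 and WT replicate 4 820 and 626. With 1 library left out edgeR called 0 to 142 higher and 0 to 48 lower: 111 and 48 without KO replicate 1, 118 and 2 without KO replicate 2, 142 and 47 without KO replicate 3, 95 and 18 without WT replicate 4, and 0 without each other WT library. The Prf1 log2 difference then ranged from -1.15 to -0.59. The member log2 differences past the threshold were, by DESeq2, -1.33 (Gzmb), -1.09 (Nkg7) and -0.62 (Srgn); by voom, -1.68, -1.22 and -0.74; and without KO replicate 1 and WT replicate 4, -0.86 (Prf1). No member passed with the other scalings, the count filter or any 1 library left out, and no member changed its sign in any alternative. The Gzmm share difference turned from -0.77 to 1.72 percentage points without KO replicate 1 and WT replicate 4. With 1 library left out it ranged from -1.62 to 1.26. Relative to T cell transcripts the log2 differences with 1 library left out or with KO replicate 1 and WT replicate 4 left out ranged from -0.91 to 0.20 (Gzma), -0.74 to 0.045 (Prf1) and -0.64 to 0.27 (Srgn). The cause was not tested. The sum over all measured granzymes was not run, since it held the same 4 genes.

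The replicate number as a block gave log2 differences of -1.45 (Gzma), -1.69 (Gzmb), -2.02 (Gzmk), -0.87 (Gzmm), -1.20 (Prf1), -1.24 (Nkg7) and -0.69 (Srgn) and called 0 genes higher and 0 lower. Deviations of same-numbered libraries correlated at -0.185, -0.044 and 0.243, so the numbers were not taken to pair the libraries. The lowest member count in a library was 435. All KO totals were under all WT totals, and the part of depth in these values was not tested.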
